A study of Sus scrofa with 2 samples.

Results

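Delta nuclei, the somatostatin-expressing endocrine nuclei of the islet, were examined in single-nucleus RNA sequencing of pig pancreas. They were 60 of the 28583 barcodes of both matrices, with 22 nuclei among 13619 barcodes in the WT library and 38 among 14964 in the PIGinH11 library. A barcode was selected when it held 270 to 3700 genes and fewer than 13000 unique molecular identifiers (UMIs, each standing for 1 captured RNA molecule). Its UMIs for 7 endocrine genes (PCSK2, KCNB2, GRIA3, NOL4, RIMS2, RAB3C and SNTG1, called the endocrine gate) had to number at least 3 and make up at least 0.5% of the total. It also needed at least 1 UMI of SST, more SST than GCG and PPY, INS below 0.15% and RBPJL, an acinar transcription factor, below 0.1% of its UMIs. The members were thus chosen by measured values of these 12 genes, which are given below as a description only.

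The study compared 1 WT Bama pig with 1 PIGinH11 Bama pig, both males. PIGinH11 carries GIPRdn (a dominant-negative receptor of the incretin GIP), hIAPP (human islet amyloid polypeptide) and PNPLA3 I148M, knocked in at the H11 locus under promoters that drive them in beta cells or in liver. According to the labels both animals were 18 months old. They received control diet up to 6 months of age and then a high-fat and high-sucrose diet for 12 months, made of control feed (53%) to which sucrose (37%) and lard from pork (10%) were added. A piece from the body of the pancreas gave 1 library in each group, so animal, library and genotype cannot be told apart, no test between groups was possible, and every interval below covers counting error only.

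Delta cells are the islet cells that release somatostatin, a peptide that acts on neighbouring alpha and beta cells and restrains the release of glucagon and insulin. They are electrically excitable, share the prohormone convertases and secretory granules of the other endocrine cells, and reach their neighbours through long processes. Signals from alpha and beta cells, among them urocortin 3 acting on the receptor CRHR2, are known to drive somatostatin release.

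The WT delta nuclei held 77027 UMIs in all and the PIGinH11 delta nuclei 104923. The whole libraries held 55784067 and 26228811 UMIs. The median WT delta nucleus held 3236.5 UMIs from 1766 genes, and the median PIGinH11 delta nucleus 1686 UMIs from 1135.5 genes, so WT was deeper. Mitochondrial transcripts made up 0.113% of UMIs in WT and 0.0191% in PIGinH11. None of the 60 nuclei carried a barcode that occurred in both libraries. Scrublet, which scores a barcode by its likeness to simulated doublets, counted 2 WT delta nuclei (of 22) and 1 from PIGinH11 (of 38) as doublets. The share called was set in advance, at 10.9% of all WT and 12.0% of all PIGinH11 barcodes.

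Delta nuclei were 0.167% of the barcodes within the gene and UMI limits in WT (95% exact Clopper–Pearson interval 0.105 to 0.252, 22 of 13189) and 0.255% in PIGinH11 (0.180 to 0.350, 38 of 14908). Among the nuclei that met the gate and the RBPJL limit, called gate nuclei here, they were 7.53% in WT (4.78 to 11.2, 22 of 292) and 9.90% in PIGinH11 (7.10 to 13.3, 38 of 384). The intervals of the 2 libraries overlapped on both denominators. When each barcode was thinned to 500 UMIs before the rule was applied, 10 WT and 20 PIGinH11 nuclei met it. These were 3.65% (1.76 to 6.61) and 5.06% (3.12 to 7.71) of the thinned gate nuclei, so the level of the share differed with depth. By the same hormone rule, the gate held 75 alpha nuclei (GCG above SST and PPY) in WT and 81 in PIGinH11. Beta nuclei (INS at 0.15% or more) numbered 145 and 133, gamma nuclei (PPY above GCG and SST) 9 and 25, and nuclei without a UMI of SST, GCG or PPY and with low INS, called hormone-negative here, 41 and 106.

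SST chose these nuclei, and its values are a description. The SST gene lies at chr13:125337560-125338742 of Sscrofa11.1 in the RefSeq annotation. In WT the delta nuclei held 165 SST UMIs, or 2142 CPM (UMIs of the gene per 1000000 UMIs of the class, Poisson interval 1828 to 2495), and in PIGinH11 244 UMIs, or 2326 CPM (2043 to 2636). The 2 levels lay within each other's intervals.

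The SST count was very uneven among the nuclei. It ran from 1 to 35 UMIs with a median of 4 in WT, and from 1 to 42 with a median of 2 in PIGinH11. The 3 richest nuclei held 53.3% of the SST UMIs in WT and 37.3% in PIGinH11. Exactly 1 SST UMI was found in 5 WT and 14 PIGinH11 nuclei, so that these lay just inside the threshold, whereas 8 and 12 nuclei held 5 or more. Nuclei with 5 or more SST UMIs were deeper, with a median of 4204.5 UMIs in WT and 4417.5 in PIGinH11, than nuclei with exactly 1, at 1581 and 1413.

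**Figure D1:**
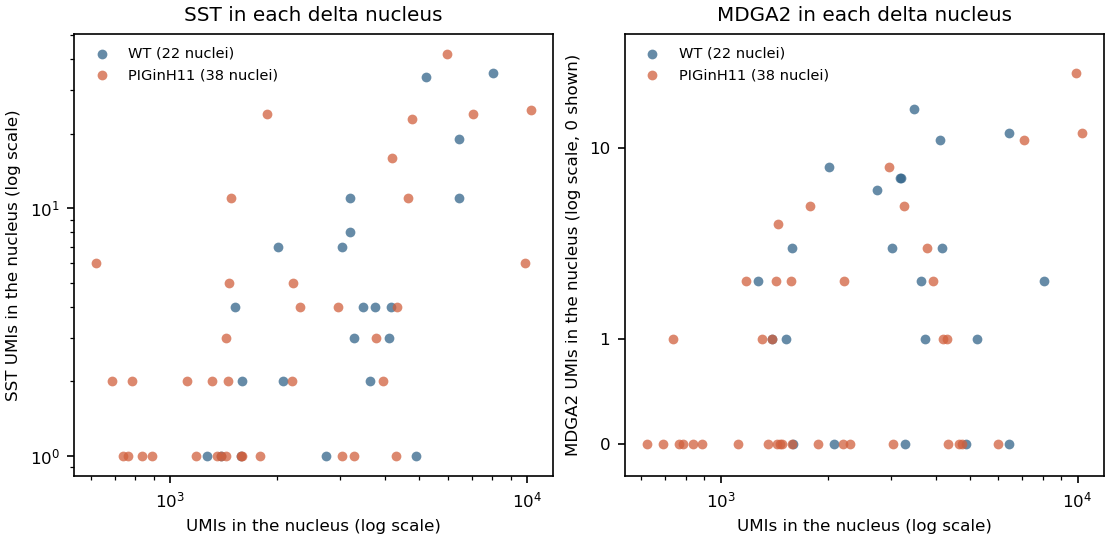
SST (left) and MDGA2 (right) UMIs in each delta nucleus against all UMIs of that nucleus, on log scales with 0 shown for MDGA2, with 1 point for each of the 22 WT and 38 PIGinH11 nuclei. SST chose the nuclei and reaches 35 UMIs in WT and 42 in PIGinH11, and MDGA2, which did not, is absent from some nuclei in both libraries.

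The other thresholds of the rule were met as follows. Gate genes made up at least 0.505% of UMIs in WT and 0.543% in PIGinH11, with medians of 1.35% and 1.36%, and 5 and 9 nuclei were below 1%. Just outside the rule, 3 WT and 4 PIGinH11 gate nuclei had more SST than GCG and PPY but INS at or above the limit, and 0 and 4 failed on RBPJL alone. Among barcodes within the limits that had too few UMIs of the 7 gate genes, 97 of 12873 in WT and 99 of 14439 in PIGinH11 had an SST UMI, and none had 5 or more.

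The rule also limited the hormones of the other islet cells, so their values are a description. No GCG or PPY UMI was found in the 22 WT and 38 PIGinH11 delta nuclei, and the rule itself required this of the 5 and 14 nuclei with a single SST UMI. An INS UMI was present in 11 of 22 WT nuclei and 6 of 38 PIGinH11 nuclei. These shares, 50.0% and 15.8% at median depths of 3236.5 and 1686 UMIs, stood beside 45.4% and 13.9% in the acinar reference, at median depths of 3332 and 1257.5. The acinar reference was taken as the nuclei outside the gate with RBPJL at or above its limit, 7477 in WT and 9164 in PIGinH11, which should lack islet hormones. The rule kept INS low in the delta nuclei, so nothing is read from the nearness of these shares. An SST UMI occurred in 0.789% and 0.687% of the acinar reference nuclei.

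The label was then set beside marker genes that the rule did not use. These markers were chosen with earlier results of these data known, so their levels are a description and no independent check of the label. MDGA2, a cell surface protein that binds neuroligins, was detected in 17 of 22 WT and 18 of 38 PIGinH11 delta nuclei. Its level was 1116 CPM in WT (893 to 1379) and 839 CPM in PIGinH11 (673 to 1033), against 19.5 and 30.0 CPM in alpha, 31.5 and 15.5 CPM in beta, and 43.8 and 171 CPM in gamma nuclei. MDGA2 spans chr1:176770045-177595012. Its level in nuclei with a single SST UMI, 1011 CPM in WT (522 to 1766) and 786 CPM in PIGinH11 (473 to 1228), overlapped in its interval with that in nuclei with 5 or more, 1065 (761 to 1451) and 937 CPM (697 to 1231). Without the nucleus richest in MDGA2, the PIGinH11 nuclei with 5 or more held 583 CPM (381 to 855). Hormone-negative nuclei held 91.9 and 167 CPM of MDGA2, below both. For UNC5C the same comparison in WT gave 337 CPM (91.8 to 863) in nuclei with a single SST UMI and 1891 CPM (1477 to 2385) in those with 5 or more. Without the nucleus richest in UNC5C, the latter level was 1189 CPM (837 to 1639), with 6 of 7 nuclei holding it, and the intervals overlapped narrowly. In PIGinH11 its levels were 290 (116 to 597) and 257 CPM (141 to 431).

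UNC5C, a receptor for the guidance cue netrin at chr8:124149364-124533755, was found at 1078 CPM in WT delta nuclei (858 to 1336) and 257 CPM in PIGinH11 (170 to 374). In alpha nuclei it was at 0 and 8.58 CPM, in beta nuclei at 25.5 and 25.8 CPM, and in gamma nuclei at 0 and 14.3 CPM. A single WT nucleus held 34 of the 83 WT UMIs, and without it the WT level was 694 CPM. PTPRT, a receptor tyrosine phosphatase, was not called, with 831 and 696 CPM in delta, 351 and 793 CPM in alpha, and 460 and 183 CPM in beta nuclei. A PTPRT UMI was present in 14 of 22 WT and 20 of 38 PIGinH11 delta nuclei, or 63.6% and 52.6%, beside 41.3% and 55.6% of alpha and 53.8% and 24.8% of beta nuclei, so PTPRT did not set delta nuclei apart. MDGA2 or UNC5C was detected in 20 of 22 WT and 23 of 38 PIGinH11 delta nuclei, or 90.9% and 60.5%. The shares were 5.33% and 9.88% in alpha, 9.66% and 6.02% in beta, 22.2% and 36.0% in gamma and 24.4% and 15.1% in hormone-negative nuclei, with 3.73% and 4.55% in the acinar reference.

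Across all genes outside the rule, delta nuclei were compared in each library with the unweighted mean CPM of alpha, beta and gamma nuclei, as a log2 ratio with 5 CPM added to both sides. A gene was called when it was at least 2-fold higher, or at least 2-fold lower, in both libraries. Of 2400 genes with at least 20 UMIs in the delta nuclei or expected there from the other classes, 121 (5.04%) were higher and 136 (5.67%) lower, and the median log2 ratio was 0.0095 in WT and 0.068 in PIGinH11. These calls are folds in 2 libraries, with no p-value. With each nucleus thinned to 500 UMIs, 23 genes were higher and 22 lower. With the counts of a mean acinar reference nucleus subtracted from each nucleus, 188 were higher and 369 lower.

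Of 15 delta markers in the list, 14 were found in the matrices and 6 were measured outside the rule, of which 3 (MDGA2, UNC5C and CASR) were higher and none was lower, beside 5.04% and 5.67% of all genes. CASR, the calcium-sensing receptor, was at 714 CPM in WT (538 to 929) and 1096 CPM in PIGinH11 (905 to 1316). Its log2 ratio over the other endocrine nuclei was 2.27 and 3.31. PTPRT, ERBB4 (a neuregulin receptor) and PCSK1 (a prohormone convertase) were measured but not called. ERBB4 was at 623 and 267 CPM, with log2 ratios of 2.94 and 0.75, and PCSK1 at 182 and 114 CPM, with 1.48 and 0.33.

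The remaining markers had too few UMIs to be measured. HHEX, a transcription factor of delta cells, had 2 UMIs in WT and 0 in PIGinH11, and 0 CPM in the mean of alpha, beta and gamma nuclei in both libraries. RBP4, the retinol carrier, had 4 and 5 UMIs in delta nuclei against a mean of 0 and 0.859 CPM elsewhere in the endocrine gate. LEPR, the leptin receptor, had 14 and 3 UMIs, FFAR4, a fatty acid receptor, 4 and 2, GHSR, the ghrelin receptor, 0 and 6, and SSTR1, a somatostatin receptor, 0 in both. BCHE was not analysed here.

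Among islet transcription factors, 32 of 35 listed genes were found in the matrices and 13 were measured, of which 2 were higher (ISL1 and RFX2) and 1 was lower (ETV1) in delta nuclei, beside 5.04% and 5.67% of all genes. ISL1, required for the maturation of islet cells, was at 376 and 324 CPM, with log2 ratios of 1.90 and 1.72. RFX2 was at 909 and 1296 CPM, with log2 ratios of 1.07 and 1.15, just past the limit, and without its richest nuclei these were 0.95 and 1.06, so that it was not called. ETV1 was at 104 and 114 CPM against 467 and 388 CPM in the other classes, where gamma nuclei carried most of it.

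General endocrine factors were present without being called. PAX6 was at 312 and 362 CPM, against 314 and 278 CPM elsewhere, and RFX6 at 1116 and 1077 CPM, with log2 ratios of 1.08 and 0.85. RFX3 was at 1000 and 696 CPM, ST18 at 610 and 839 CPM, MEIS1 at 338 and 362 CPM, FOXO1 at 364 and 181 CPM, TSHZ1 at 90.9 and 200.1 CPM, and HNF4A at 208 and 28.6 CPM. MEIS2 was at 1026 and 2087 CPM, with log2 ratios of −0.02 in WT and 1.85 in PIGinH11. A single nucleus held 43 of the 79 WT UMIs of MEIS2, and another 61 of the 219 PIGinH11 UMIs.

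Factors that define other islet cells came next. NKX6-1, a beta cell factor, had 0 UMIs in the delta nuclei of both libraries, a count that allows up to 38.9 CPM in WT and 28.6 CPM in PIGinH11, while beta nuclei held 61.6 and 54.1 CPM. IRX2, found in alpha cells, had 0 UMIs as well, and alpha nuclei held 104 and 124 CPM. IRX1, MAFA, PAX4, POU3F1 and MNX1 had 0 UMIs too. MAFA, however, also had 0 UMIs in WT beta nuclei and in alpha nuclei of both libraries, so its 0 does not set delta nuclei apart. PDX1, a factor shared by beta and delta cells, had 4 and 3 UMIs, NEUROD1 1 and 6, MYT1L 5 and 12, MYT1 4 and 7, FOXA2 3 and 3, ESR1 5 and 0, RXRG 2 and 0, FEV 1 and 0, and NKX2-2 0 and 1.

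**Figure D2:**
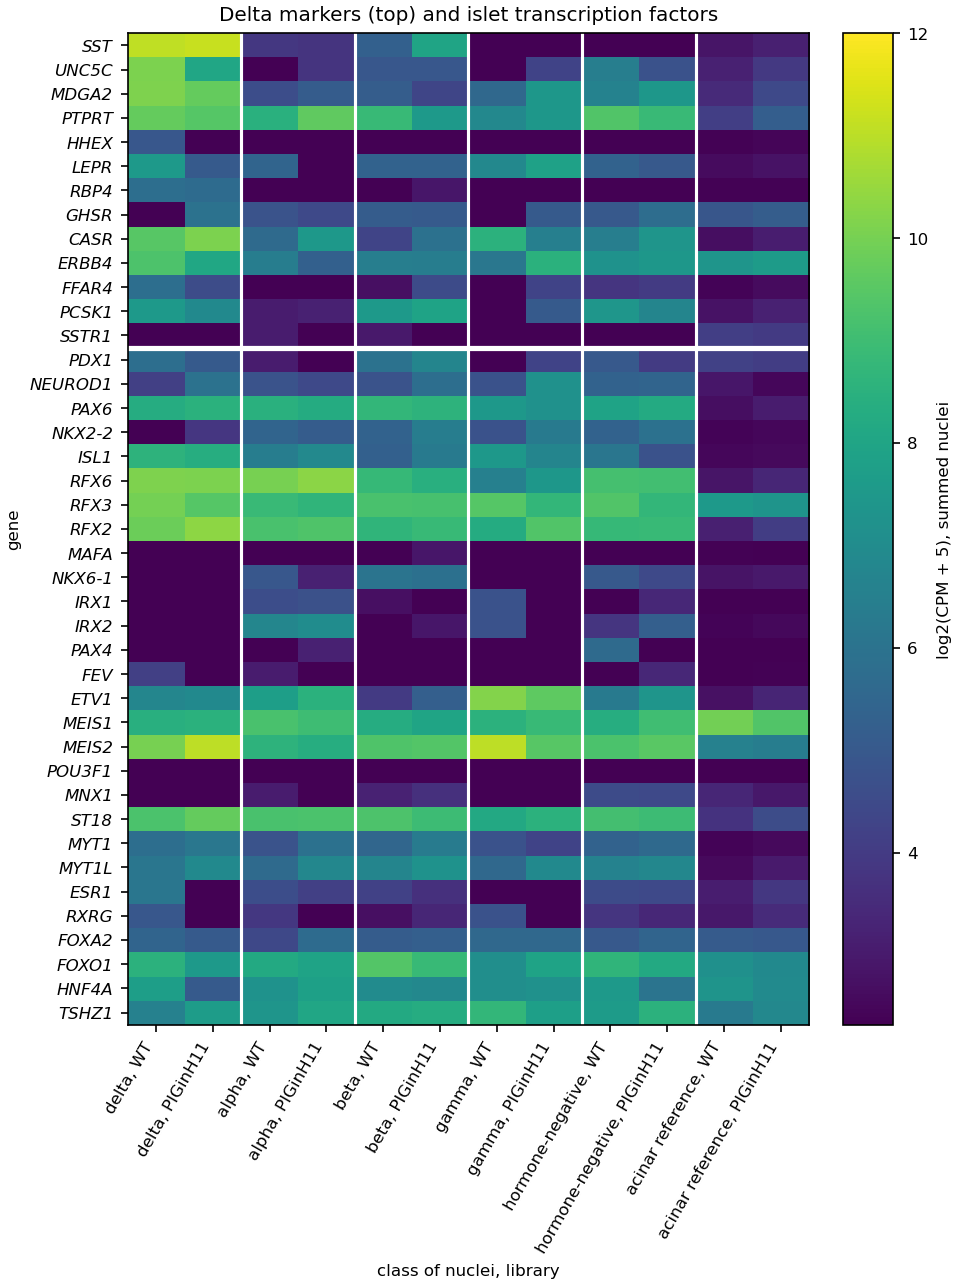
Levels of delta markers (above the white line) and islet transcription factors (below) as log2(CPM + 5) of the summed nuclei of each class and library. SST, which chose the nuclei, and MDGA2, UNC5C, CASR and ISL1 are brighter in the delta columns than in the alpha, beta and gamma columns of their rows, while IRX1, IRX2 and NKX6-1 are at 0 UMIs there.

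Markers of the other endocrine classes were then read in the delta nuclei. The counts of these short lists stand beside 5.04% higher and 5.67% lower of all genes. Of 4 measured alpha markers, 2 were lower and none higher, SLC7A2 (an amino acid transporter, 273 and 47.7 CPM against 794 and 870 CPM) and TTR (transthyretin, 51.9 and 57.2 CPM against 353 and 338 CPM). Of 5 measured beta markers, 3 were lower, namely SLC30A8 (the granule zinc transporter), SLC2A2 (the glucose transporter GLUT2) and PFKFB2, and 1 was higher, NPTX2, at 130 and 162 CPM against 50.1 and 39.0 CPM. Of 4 measured gamma markers, ETV1 and KCNIP4 were lower and none was higher. The 8 gamma markers nevertheless summed to 2700 CPM in WT and 2640 CPM in PIGinH11 delta nuclei. The same sum was 1871 and 1141 CPM in alpha, 714 and 944 CPM in beta, and 9562 and 6698 CPM in gamma nuclei. In delta nuclei TRPM3 was the most abundant in WT (1519 CPM) and MEIS2 in PIGinH11 (2087 CPM). In WT, single nuclei held most of the UMIs of TRPM3 and of MEIS2, as given with these genes elsewhere. Epsilon markers were not measured, with 1 and 2 UMIs of GHRL, the ghrelin gene.

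Markers of cells outside the islet were also read in the delta nuclei, with the acinar, stellate and mural sums given with the comparison of the libraries. The 8 ductal markers summed to 1142 CPM in WT (916 to 1408) and 1544 CPM in PIGinH11 (1315 to 1801), SLC4A4, a bicarbonate transporter, being the most abundant. Of 5 measured ductal markers, SCTR, the secretin receptor, was higher than in the other endocrine nuclei, at 221 and 400.3 CPM against 44.0 and 24.8 CPM, and none was lower. Of all genes, 5.04% were higher and 5.67% lower. Endothelial markers summed to 182 and 210 CPM, with PECAM1 the most abundant at 13 and 11 UMIs, and the defining FLT1, PLVAP and VWF were at 0 UMIs in WT and at 2, 2 and 1 UMIs in PIGinH11, where none of the 7 markers was at 0. Immune markers summed to 90.9 and 143 CPM, with SKAP1 the most abundant and CD163 and CSF1R at 0 UMIs in both libraries, and Schwann cell markers to 13.0 and 38.1 CPM. None of 11 measured acinar markers was called against the other endocrine nuclei, although the median log2 ratio of that list was 0.58 in WT and 0.25 in PIGinH11, and the part of this background in the other results was not tested.

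Guidance and adhesion receptors were called on both sides. Of 66 neuronal adhesion and guidance genes found in the matrices, 50 were measured, and 8 were higher and 10 lower, beside 5.04% and 5.67% of all genes. The median log2 ratio of the list was −0.39 in WT and −0.15 in PIGinH11, so the list as a whole was not higher. ROBO1, the receptor for the repellent Slit, was detected in 19 of 22 WT and 35 of 38 PIGinH11 delta nuclei, at 4492 CPM (4031 to 4991) and 6424 CPM (5948 to 6928). Alpha nuclei held 13.0 and 38.6 CPM of ROBO1, beta nuclei 439 and 454, gamma nuclei 241 and 828, and hormone-negative nuclei 1112 and 1332 CPM.

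After thinning to 500 UMIs, ROBO1 was still detected in 77.3% of WT delta nuclei (54.6 to 92.2) and 78.9% of PIGinH11 delta nuclei (62.7 to 90.4). In beta nuclei, the thinned shares were 18.6% and 15.8%, and in 1000 nuclei drawn from the acinar reference of each library 2.00% and 2.70%. The other 7 higher genes of the list were MDGA2 and UNC5C, described above, NTNG1 (netrin-G1, 415 and 524 CPM), UNC5D (a netrin receptor, 506 and 343 CPM), DSCAM (an adhesion molecule, 260 and 276 CPM), NTM (neurotrimin, 597 and 648 CPM) and SEMA3A (a secreted semaphorin, 402 and 229 CPM). Their mean levels in the other endocrine classes were 8.59 and 29.7 CPM for NTNG1, 19.4 and 26.7 for UNC5D, 10.4 and 14.2 for DSCAM, 188 and 204 for NTM, and 88.7 and 64.7 for SEMA3A. For UNC5D 23 of the 39 WT UMIs, and for DSCAM 18 of the 29 PIGinH11 UMIs, came from 1 nucleus.

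The 10 lower genes of the list were CADM1, CADM2, CDH18, CNTN1, GPC6, LRP1B, LRRC4C, NLGN1, OPCML and SEMA6D. CADM2, a synaptic adhesion molecule, was at 805 and 524 CPM in delta nuclei against 3224 and 3608 CPM elsewhere. OPCML was at 130 and 448 CPM against 1591 and 1926 CPM, and GPC6, a glypican, at 26.0 and 85.8 CPM against 1567 and 1435 CPM. Members of the same families thus stood on both sides of the other endocrine nuclei. ROBO2, NEGR1 and PCDH9, which were among the genes of the list with the most UMIs, were not called, with log2 ratios from −0.92 to 0.66.

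Receptors for hormones, nutrients and transmitters included 9 measured genes, of which 3 were higher and 1 was lower, beside 5.04% and 5.67% of all genes. CRHR2 had 5 UMIs in 3 WT delta nuclei and 17 UMIs in 12 PIGinH11 delta nuclei, or 64.9 CPM (21.1 to 151) and 162 CPM (94.4 to 259). It was found at 3.25 CPM in WT alpha nuclei and at 0 in PIGinH11 alpha nuclei and in beta and gamma nuclei of both libraries. Hormone-negative nuclei held 0 UMIs of CRHR2 in WT and 4 UMIs in 3 of 106 nuclei in PIGinH11, or 22.3 CPM (6.07 to 57.1). GCGR, the glucagon receptor, was at 117 and 105 CPM against 30.2 and 19.8 CPM elsewhere. The third was CASR.

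GRIK1, a kainate receptor subunit, was the lower gene, with 2 and 9 UMIs in delta nuclei, or 26.0 and 85.8 CPM against 2952 and 3147 CPM in the other endocrine classes. Its relative GRIK2 was at 727 and 791 CPM against 1255 and 890 CPM and was not called. IGF1R (428 and 867 CPM) and GRM5 (519 and 743 CPM) were not called either. Of the somatostatin receptors, SSTR2 had 3 and 1 UMIs, SSTR3 1 and 3, and SSTR5 0, too few to be measured.

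Sodium and potassium channel genes had 13 measured members, with 5 higher (FGF14, KCNT2, KCNIP1 and SCN2A among them) and 2 lower (KCNIP4 and DPP6), and median log2 ratios of 0.90 and 0.71. Of all genes 5.04% were higher and 5.67% lower. FGF14, an intracellular partner of voltage-gated sodium channels, was at 6167 CPM in WT (5625 to 6747) and 5328 CPM in PIGinH11 (4895 to 5788), against 891 and 886 CPM elsewhere. It was detected in 21 of 22 and 33 of 38 delta nuclei, and the richest nucleus of each library held 112 and 119 UMIs. KCNT2, a sodium-activated potassium channel, was at 740 and 772 CPM against 168 and 234 CPM, and SCN2A, a sodium channel, at 90.9 and 152 CPM against 8.76 and 36.4 CPM.

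KCNIP1 was at 610 and 810 CPM against 210.5 and 214 CPM, while its relative KCNIP4 had 1 and 4 UMIs, or 13.0 and 38.1 CPM against 1058 and 826 CPM. These 2 genes, which both bind Kv4 potassium channels, therefore had opposite ratios. SCN9A was at 1324 and 572 CPM, with log2 ratios of 1.44 and 0.71, SCN3A at 480 and 572 CPM, with 0.90 and 1.52, and KCNMA1 at 1519 and 1144 CPM, with −0.07 and −0.96, and none of these was called.

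Of 15 measured genes of voltage-gated calcium channels and calcium handling, 2 were higher and 2 lower, beside 5.04% and 5.67% of all genes. CACNA2D1, an auxiliary calcium channel subunit, was at 4336 and 4689 CPM against 1689 and 2077 CPM, and CACNA2D3 at 493 and 734 CPM against 207 and 140 CPM, the latter with log2 ratios of 0.76 and 1.97 without its richest nuclei, and so no call there. RYR2, the ryanodine receptor that releases stored calcium, had 2 UMIs in each library, or 26.0 and 19.1 CPM against 776 and 637 CPM. CACNB4 was at 351 and 276 CPM against 898 and 620 CPM. The pore-forming subunits CACNA1A (987 and 1554 CPM), CACNA1D (805 and 610 CPM) and CACNA1B (753 and 600.4 CPM) were not called.

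Genes of glucose sensing and of secretion came next. ABCC8, the regulatory subunit of the KATP channel, was at 1285 and 886 CPM against 1588 and 2264 CPM. SLC2A2, with 5 and 0 UMIs, was the 1 lower gene among 4 measured for glucose entry and the KATP channel, and none was higher. Of 9 measured genes for prohormone processing and granules, CHGA (chromogranin A, 428 and 534 CPM against 150 and 261 CPM) was higher, and SLC30A8 and TTR were lower, beside 5.04% and 5.67% of all genes. Without its richest nuclei CHGA had log2 ratios of 1.32 and 0.90, the second just under the limit. PTPRN2, CPE, SCGN and PAM were not called.

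Of 19 measured genes of the exocytosis machinery, SYT1, a calcium sensor of vesicle fusion, was higher (221 and 133 CPM against 19.2 and 7.91 CPM), although its 17 and 14 UMIs came from 4 nuclei in each library. ERC2 and RAB27B were lower, so that 1 of 19 was higher and 2 were lower, near the 5.04% and 5.67% of all genes. PCLO, STXBP5L, RIMBP2 and SNAP25 were not called. For cAMP and calcium signalling, 1 of 22 measured genes was higher, near that share, and 4 were lower. PRKCB, protein kinase C beta, was at 740 and 753 CPM against 145 and 125 CPM. PDE4D, a cAMP phosphodiesterase, was at 701 and 648 CPM against 4288 and 4443 CPM, PLCB1 at 182 and 353 CPM against 1652 and 1038 CPM, and DGKG and PDE8B were the other lower genes.

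**Figure D3:**
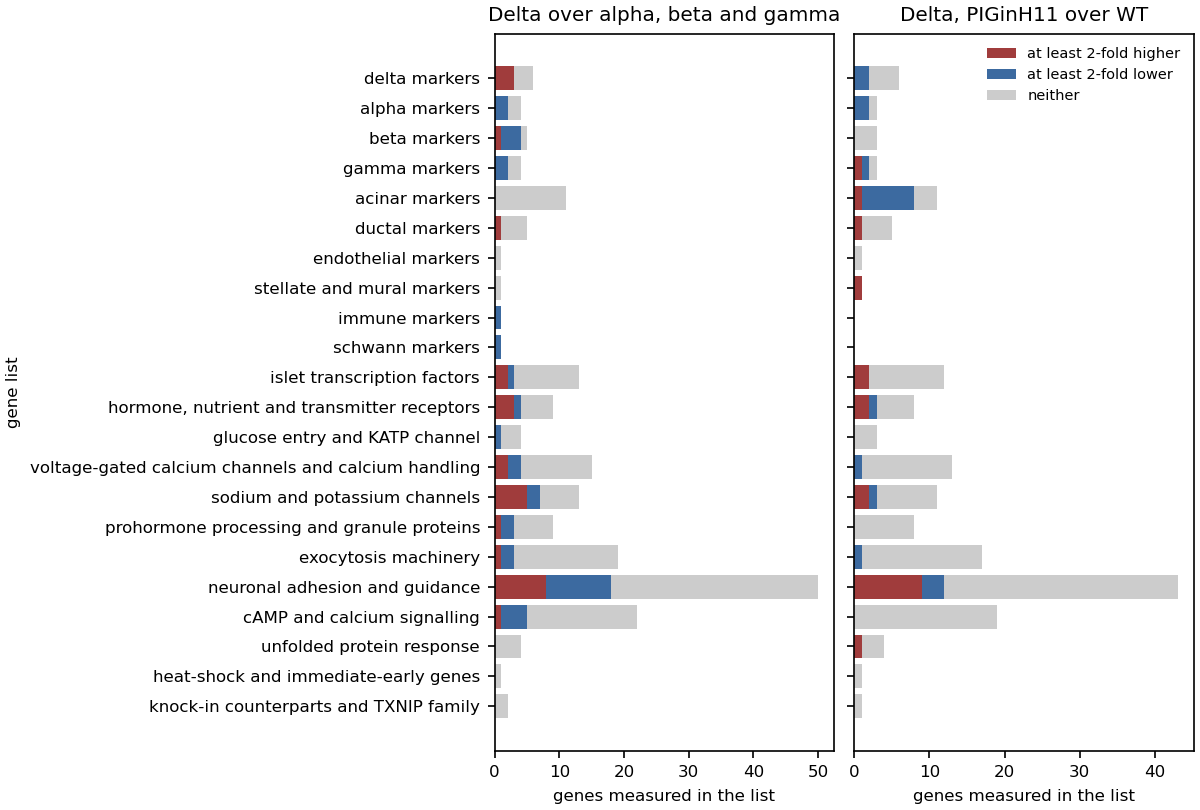
Number of measured genes in each list at least 2-fold higher (red), at least 2-fold lower (blue) or neither (grey) in delta nuclei over alpha, beta and gamma nuclei in both libraries (left) and in PIGinH11 over WT delta nuclei (right). On the left, sodium and potassium channels show 5 higher of 13 and neuronal adhesion and guidance genes 8 higher and 10 lower of 50, and on the right 7 of 11 acinar markers are lower.

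Outside the lists, the 15 genes with the highest ratio in the library where it was lower were HMCN1, STK32A, ASIC2, HS3ST5, NWD2, VSTM2A, ST6GALNAC5, SULF2, STXBP6, TPD52L1, SAMD4A, EHF, PLCL1, SEMA6A and GPR137C. HMCN1, an extracellular matrix protein of the hemicentin family, was at 883 CPM in WT (686 to 1119) and 762 CPM in PIGinH11 (605 to 949), against 18.7 and 17.2 CPM elsewhere. It was detected in 13 of 22 and 20 of 38 nuclei, and 31 of its 68 WT UMIs came from 1 nucleus. ASIC2, an acid-sensing ion channel, was at 792 and 905 CPM, with log2 ratios of 4.08 and 4.79, and was detected in 14 and 19 nuclei.

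HS3ST5, a heparan sulfate sulfotransferase, was at 532 and 534 CPM in delta nuclei, 3.25 and 8.58 CPM in alpha, 91.6 and 82.5 CPM in beta and 0 in gamma nuclei. ST6GALNAC5, a sialyltransferase, was at 870 and 1592 CPM, with log2 ratios of 4.52 and 3.46, and also at 349 and 552 CPM in hormone-negative nuclei. SULF2, a heparan sulfate sulfatase, had only 11 and 14 UMIs, or 143 and 133 CPM, against mean levels that gave log2 ratios of 3.25 and 3.32. NWD2 was detected in 17 of 22 WT and 25 of 38 PIGinH11 nuclei, at 727 and 829 CPM.

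The remaining genes had log2 ratios from 2.76 to 5.12 in either library. STK32A, a kinase, was at 195 and 248 CPM, STXBP6, a SNARE-binding protein, at 506 and 524 CPM, PLCL1, a phospholipase C-like protein, at 818 and 810 CPM, and SEMA6A, a semaphorin, at 312 and 457 CPM. VSTM2A had 9 and 14 UMIs, TPD52L1 10 and 13, SAMD4A 8 and 18, EHF, an epithelial transcription factor, 12 and 11, and GPR137C 11 and 24. These low counts leave wide intervals. EHF was at 156 and 105 CPM in delta nuclei and also at 82.2 and 66.5 CPM in the acinar reference. STXBP6 was at 188 and 142 CPM in the acinar reference. Other receptors outside the lists were also called, such as HTR4, a serotonin receptor, at 273 and 896 CPM, with log2 ratios of 2.02 and 3.76, a gene chosen after its values were seen.

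The 10 genes outside the lists with the most negative ratios were FAM184B, LPAR1, DOCK10, TMEM163, SRGAP1, CA10, ZNF385D, FRMD5, SIDT1 and MPPED2. They had from 0 to 5 UMIs in the delta nuclei of a library. Each was more abundant in at least 1 other endocrine class. FAM184B was at 906 and 823 CPM in alpha nuclei with 0 and 2 UMIs in delta nuclei, and FRMD5 at 708 and 806 CPM in alpha nuclei with 1 and 5 UMIs. CA10 was at 1184 and 1085 CPM in beta nuclei with 4 and 2 UMIs in delta nuclei. SIDT1 was at 481 and 400 CPM in gamma nuclei with 0 and 2 UMIs.

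**Figure D4:**
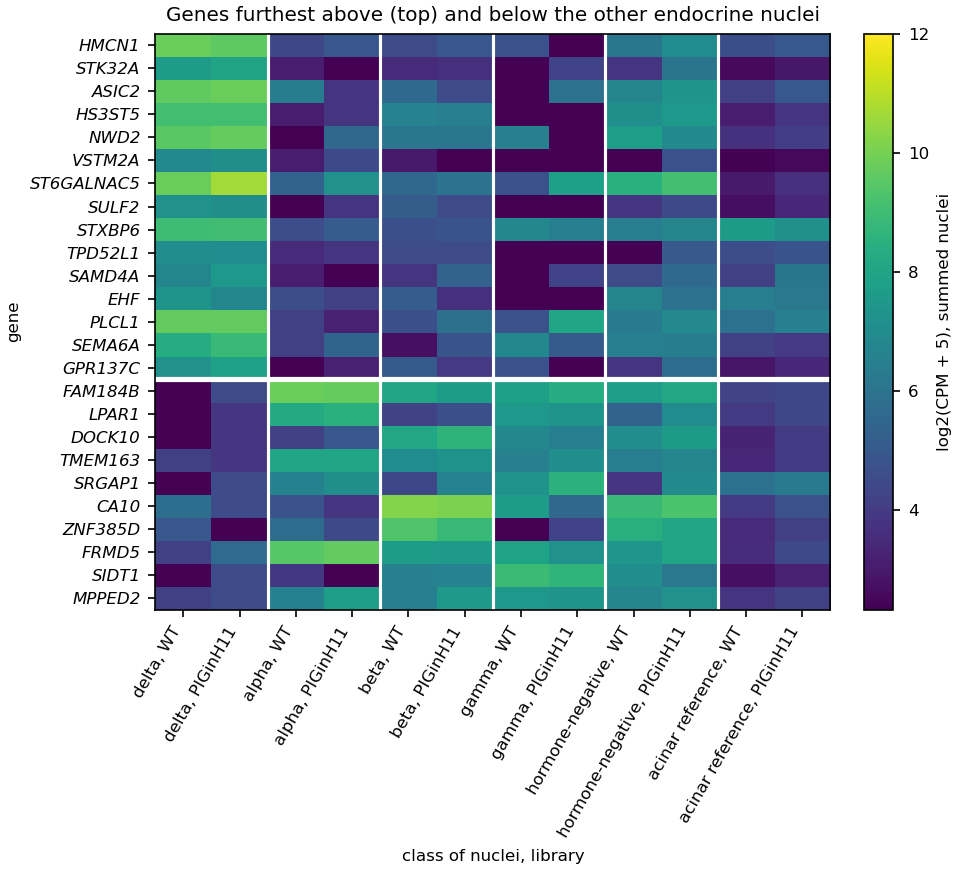
Levels, as log2(CPM + 5) of summed nuclei by class and library, of the 15 genes outside the lists with the highest (above the white line) and the 10 with the most negative ratios of delta over alpha, beta and gamma nuclei. The upper genes were chosen for being high in both delta columns, and several, such as ST6GALNAC5 at 349 and 552 CPM, are also present in hormone-negative nuclei.

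The likeness of whole profiles was described by the correlation of log2(CPM + 5) over 2400 genes within a library, where genes are not independent and classes share a library. Delta nuclei had a Pearson r of 0.620 in WT and 0.679 in PIGinH11 with hormone-negative nuclei, 0.561 and 0.551 with beta, 0.524 and 0.527 with alpha, 0.457 and 0.510 with gamma, and 0.264 and 0.271 with the acinar reference. Gamma nuclei were few, at 9 and 25. Between the 2 libraries, delta nuclei had an r of 0.660 over 2082 genes.

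The PIGinH11 library was then compared with the WT library within the delta nuclei, to describe both genotypes on the same diet. The ratio of CPM was taken with 0.5 UMIs added to each sum, with an exact conditional binomial interval of the ratio of the sums. Of 2082 genes with at least 20 UMIs, 208 (9.99%) were at least 2-fold higher and 159 (7.64%) at least 2-fold lower in PIGinH11, with a median log2 ratio of 0.075. Fewer nuclei of a subtype and less RNA per nucleus cannot be told apart in these sums. With each nucleus thinned to 500 UMIs, 19 genes were higher and 26 lower. With the counts of a mean acinar reference nucleus subtracted from each nucleus, 754 were higher and 272 lower. The median acinar reference nucleus held 3332 UMIs in WT and 1257.5 in PIGinH11, beside 3236.5 and 1686 in delta nuclei. The subtraction took a larger part of the WT counts, so nothing is read from the excess of higher genes.

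Of 6 measured delta markers, 5 had a negative ratio and CASR a positive one, with a median log2 ratio of −0.54. The 13 delta markers other than SST summed to 4985 CPM in WT (4499 to 5510) and 3507 CPM in PIGinH11 (3158 to 3885), intervals that did not overlap. SST, which chose the nuclei, had a log2 ratio of 0.12 (−0.17 to 0.41) and MDGA2 of −0.41 (−0.86 to 0.03). CASR was at 0.61 (0.14 to 1.11), under 2-fold, PTPRT at −0.26 (−0.76 to 0.25) and PCSK1 at −0.66 (−1.91 to 0.55). UNC5C was lower at −2.05 (−2.75 to −1.42), with 83 UMIs in 14 WT nuclei and 27 UMIs in 12 PIGinH11 nuclei, and ERBB4 at −1.21 (−1.95 to −0.52). So 2 of the 6 were at least 2-fold lower and none was at least 2-fold higher, beside 7.64% and 9.99% of all genes. Without its richest nuclei ERBB4 had a log2 ratio of −0.98, just under 2-fold.

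Most of the lowest ratios were those of digestive enzymes and their cofactors. TFF2, a secreted trefoil peptide, had 37 UMIs in 16 WT delta nuclei and 1 UMI in 1 PIGinH11 nucleus, with a log2 ratio of −5.09 (−11.00 to −3.09). PRSS2, a trypsinogen, was at 24887 CPM in WT and 1287 CPM in PIGinH11 delta nuclei, −4.27 on the log2 scale (−4.54 to −4.02), and its ratio was −3.35 in alpha, −4.40 in beta and −3.57 in gamma nuclei. A single WT delta nucleus held 594 of the 1917 PRSS2 UMIs. CELA2A (−3.78), PLA2G1B (−3.51), CTRC (−3.35), CPA1 (−2.68) and CLPS (−2.57) and the metallothioneins MT1X (−3.86) and MT1A (−3.57) were also negative in alpha, beta and gamma nuclei.

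The 16 acinar markers outside the rule summed to 45802 CPM in WT delta nuclei (44303 to 47339) and 7587 CPM in PIGinH11 (7069 to 8132). PTF1A and BHLHA15 were at 0 UMIs in WT and none was at 0 in PIGinH11, and PRSS2 was the most abundant in both. In the acinar reference, the same sum was 76740 and 43019 CPM. Of 11 measured acinar markers, 7 were lower and 1, CHN2, was higher in PIGinH11, beside 7.64% and 9.99% of all genes. PNLIP, the pancreatic lipase, had a log2 ratio of −0.77 without its richest nuclei and was then not past 2-fold. As an alternative, the counts of a mean acinar reference nucleus of the same library were subtracted from each delta nucleus. Then 9 of the 10 genes with the lowest ratios (TFF2, PRSS2, MT1X, CELA2A, MT1A, PLA2G1B, CTRC, CPA1 and CLPS) had 0 UMIs left in both libraries and so no ratio. For PRSS2, 22 such nuclei would hold 2668 UMIs in WT, against 1917 in the delta nuclei, and 38 would hold 419 in PIGinH11, against 135. Such a subtraction removes all that acinar nuclei hold, their own RNA included, so the share of free RNA itself was not measured. TMEM132D, the remaining gene of the 10, kept 27.9 and 2.03 UMIs. Before the subtraction it had 29 and 4 UMIs and a log2 ratio of −3.16 (−5.27 to −1.79), while its ratio was 0.68 in alpha, 2.23 in beta and 0.05 in gamma nuclei.

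The 10 highest ratios belonged to PRKG1, PDGFD, FRMD6, NELL1, IL1RAPL2, PRICKLE2, NLGN1, SIK2, BICC1 and GPC5. PRKG1, the cGMP-dependent protein kinase, had 0 UMIs in WT delta nuclei and 45 in 12 PIGinH11 nuclei. Against a floor of 3 counts in the WT library, this was 11.0-fold higher. It was 7.56-fold higher without the richest nucleus, which held 15 of the UMIs. Such folds leave out the counting error of the PIGinH11 UMIs, so they are not lower limits. PDGFD, a platelet-derived growth factor, had 0 and 32 UMIs, 7.83-fold higher on the same floor. A single nucleus held 13 of these 32 UMIs, and without it PDGFD was 4.93-fold higher on that floor. PRKG1 was also higher in PIGinH11 alpha nuclei, at 224 CPM in WT and 973 CPM in PIGinH11, and PDGFD in beta nuclei, at 78.1 and 340 CPM.

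PRKG1 is also a marker of mural cells. Of the 9 stellate and mural markers, PDGFRB, COL1A1, COL1A2, COL3A1, LUM and RGS5 had 0 UMIs in the delta nuclei of both libraries. The list summed to 38.9 CPM in WT, all from DCN, and 438 CPM in PIGinH11, where 45 of 46 UMIs were PRKG1 and the other was ACTA2, smooth muscle actin, a mural marker. The part of RNA from mural cells in the PRKG1 ratio was not tested.

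The other genes with high ratios had few WT UMIs. NELL1 had 5 UMIs in WT and 60 in PIGinH11 (log2 ratio 3.01, 1.84 to 4.81), IL1RAPL2 8 and 71 (2.63, 1.65 to 3.97), NLGN1, a neuroligin, 4 and 35 (2.53, 1.20 to 4.64), and GPC5, a glypican, 13 and 93 (2.35, 1.55 to 3.35). NELL1 was at 15.8 CPM in WT and 318 CPM in PIGinH11 in the acinar reference too, and its ratio was 0.80 in alpha, 0.70 in beta and 3.08 in gamma nuclei. As many mean acinar reference nuclei would hold 21.6 of the 60 NELL1 UMIs, and the part of free RNA in its ratio was not tested separately. GPC5 was also at 6.50 CPM in WT and 2251 CPM in PIGinH11 alpha nuclei. SIK2, a salt-inducible kinase, had 4 and 35 UMIs in delta nuclei and ratios of 0.89 in alpha, −0.09 in beta and 0.46 in gamma nuclei. In alpha nuclei the ratio was 2.42 for IL1RAPL2 and −0.11 for NLGN1. PRICKLE2 was at 0 CPM in WT and 103 CPM in PIGinH11 alpha nuclei, so no exact ratio is given. In delta nuclei FRMD6 had 2 and 30 UMIs, PRICKLE2 3 and 28, and BICC1, also a ductal marker, 3 and 27.

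**Figure D5:**
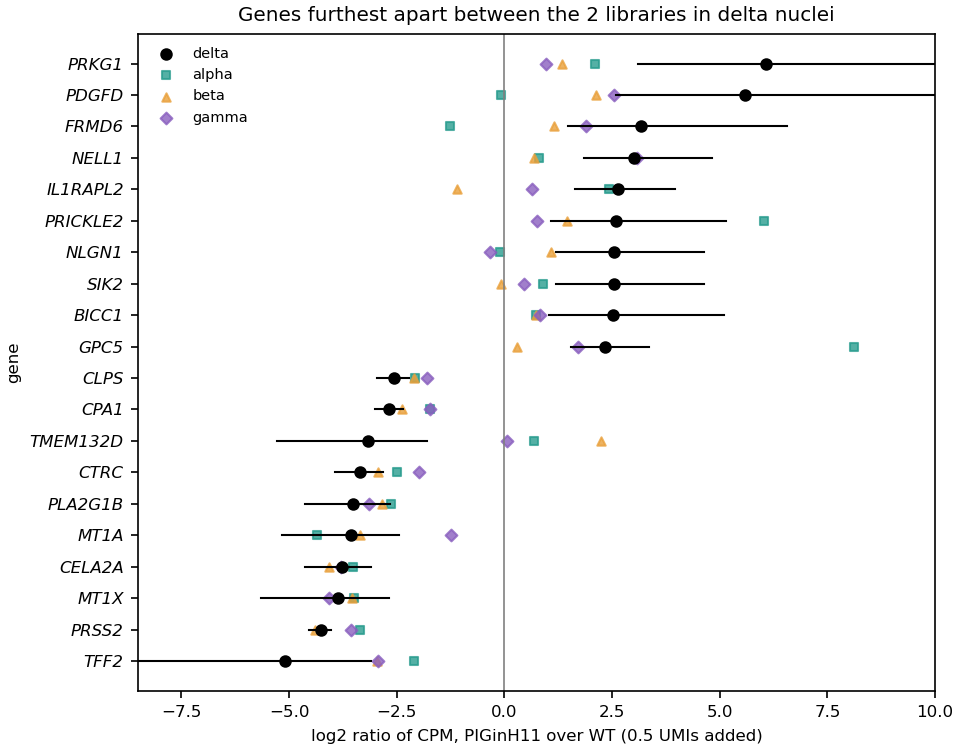
Log2 ratio of CPM, PIGinH11 over WT, in delta nuclei (black points with exact 95% counting intervals, which reach the edge of the plot where they have no bound) and in alpha, beta and gamma nuclei (coloured symbols) for the 10 highest and 10 lowest genes. The enzyme genes are negative in all 4 classes, and TMEM132D is negative in delta nuclei alone.

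Among the lists, 9 of 43 measured neuronal adhesion and guidance genes were at least 2-fold higher in PIGinH11 and 3 were lower, beside 9.99% and 7.64% of all genes, with a median log2 ratio of 0.11. The higher genes were GPC5, IL1RAPL2, NLGN1, CNTN3, CNTN4, DLGAP2, OPCML, SLIT3 and TENM2, and the lower ones UNC5C, DCC and PCDH7. ROBO1 was at 0.52 (0.33 to 0.71) and ROBO2 at −0.69 (−0.97 to −0.41), both under 2-fold. Of the transcription factors, MEIS2 (1.02, 0.65 to 1.42) and TSHZ1 (1.07, −0.15 to 2.62) were higher of 12 measured, and none was lower, beside the same shares.

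Among sodium and potassium channels, 2 of 11 measured genes were higher and 1 was lower, and among receptors 2 of 8 were higher and 1, ERBB4, was lower, beside 9.99% higher and 7.64% lower of all genes. SCN9A was lower (−1.21, −1.70 to −0.74), DPP10 and SCN8A were higher (1.54 and 1.38), and SLC8A1, the sodium and calcium exchanger and the 1 of 13 measured calcium genes past 2-fold, was lower (−1.09, −1.53 to −0.67), with −0.90 without its richest nuclei. IGF1R, the receptor of insulin-like growth factor 1, was just past the limit at 1.00 (0.43 to 1.64), and CRHR2 was at 1.22 (−0.18 to 3.11), an interval that included no change. TRPM3, a cation channel on the gamma marker list, was lower at −2.13 (−2.73 to −1.60), with 117 and 36 UMIs, of which 63 in WT came from 1 nucleus. None of 19 measured cAMP and calcium signalling genes and none of 8 measured prohormone processing genes was past 2-fold, and 1 of 17 exocytosis genes was, SYT16, lower at −1.87.

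Stress genes were sparse. Of 4 measured genes of the unfolded protein response, CREB3L2 was higher (1.10, 0.12 to 2.27), and ATF6, EIF2AK3 and CANX were not past 2-fold. Of all genes, 9.99% were higher and 7.64% lower. HSP90AA1 was the 1 measured heat-shock gene, at 0.32 (−0.54 to 1.26). HSP70.2, a heat-shock chaperone, had 10 UMIs in WT and 0 in PIGinH11, too few to be measured.

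The pig counterparts of the knocked-in genes gave little signal in delta nuclei. GIPR, the receptor of GIP, had 5 UMIs in each library, and IAPP and PNPLA3 had 0. IAPP had 0 UMIs in beta nuclei and every other class of both libraries too, so its 0 does not set delta nuclei apart. TXNIP, an arrestin that glucose induces in islet cells, had 7 and 6 UMIs, and MLXIPL, the carbohydrate response factor ChREBP, was at 260 and 457 CPM, with a log2 ratio of 0.80 (0.04 to 1.65).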

How the data were processed

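Single-nucleus libraries of 1 WT and 1 PIGinH11 pancreas were used. The authors aligned reads to Sscrofa11.1 with Cell Ranger (v3.1.0 in the labels and methods, v5.0.0 in the matrix headers) and deposited raw UMI counts per gene and barcode, before their doublet removal and Seurat (v3.1.1) filters. The matrices list 31908 genes, 15410 of them without a symbol. A reference table supplied 841 of the missing symbols. The methods print a limit of 1300 UMIs, and 13000 was used here.

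Each gene's UMIs were added up within a class and library and divided by the class total (CPM). Intervals are exact at 95% (Clopper–Pearson for shares, Poisson for sums, conditional binomial for ratios). A sum of 0 was given a floor of 3 counts per library. The 12 genes of the rule were left out of comparisons. All classes were cut by hormone from single counts, so they are ranges and not annotated types, and 60 barcodes occurred in both libraries. The median WT barcode was deeper, so the WT values carry less counting error per nucleus. The summed WT delta nuclei, however, held 77027 UMIs against 104923 in PIGinH11, so summed WT delta levels carry more counting error.

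Members and gene lists were chosen with earlier results of these data known. Named were all delta markers and islet transcription factors, the members of other lists with most UMIs or a call, the 15 highest and 10 lowest called genes outside the lists, and the 10 highest and lowest library ratios among genes with at least 30 UMIs. Some of these genes are not reported here. Alternatives changed the mitochondrial, doublet (Scrublet in scanpy v1.11.5, 0.8% per 1000 barcodes), SST, gate, gene and UMI limits, the scaling, the denominator, the weighting, the depth, the minimum count and free RNA. Steps were tested on simulated data, drawn as independent counts with no spread between nuclei. That check does not cover genes whose UMIs lie mostly in single nuclei. Coordinates are from RefSeq.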

Additional observations from a re-analysis of the deposited data

Results flagged for a closer look

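PCDH7, a protocadherin, moved in opposite directions in delta nuclei and in the other endocrine nuclei. In delta nuclei it had 23 UMIs in WT and 6 in PIGinH11, a log2 ratio of −2.30 (−3.97 to −1.05). In alpha, beta and gamma nuclei together it had 58 and 101 UMIs, or 56.9 and 146 CPM, a ratio of 1.36 (0.88 to 1.85). The difference between these ratios was not tested, and 11 of the 23 WT delta UMIs came from 1 nucleus.

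SST was also found in barcodes that the rule left out. In WT, 4 barcodes outside the rule had 5 or more SST UMIs, with up to 66, and in PIGinH11 2 barcodes had 44 and 47. The 2 richest in WT, with 66 and 29 SST UMIs, exceeded the gene limit with 4171 and 3823 genes, and held no GCG or PPY and 21 and 53 MDGA2 UMIs. The other 2 WT barcodes (11 and 10 SST UMIs) and both PIGinH11 barcodes passed the gate and were beta nuclei by the rule, with INS from 0.224% to 0.993% of UMIs. None of these 6 barcodes was among the Scrublet doublets, a share set at 10.9% of WT and 12.0% of PIGinH11 barcodes.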

How the results depend on the processing

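Each library is 1 animal, and no result has a replicate. No paired analysis was possible because each group has 1 library. Depth limits the number of nuclei and the genes that could be called. At fewer than 1300 UMIs, as the methods print, 1 WT and 9 PIGinH11 nuclei remained (3.45% and 6.21% of gate nuclei), SST in WT was at 786 CPM, 2 genes were higher and 3 lower than in the other endocrine nuclei, and 4 were higher and 10 lower between libraries. With the rule on barcodes thinned to 500 UMIs, chosen after seeing the data, there were 10 and 20 nuclei (3.65% and 5.06%). With at least 2 SST UMIs, 24 PIGinH11 nuclei remained (6.25%), with SST at 2848 CPM. With nuclei thinned to 500 UMIs, 23 genes were higher and 22 lower than in the other endocrine nuclei, and 19 and 26 between libraries. A minimum of 10 UMIs gave 191 and 254, and 487 and 376. With the mean acinar reference nucleus subtracted from each nucleus, as free RNA, there were 188 and 369, and 754 and 272. Without the richest delta nucleus of each gene, also chosen after seeing the data, 220 genes were lower than in the other endocrine nuclei, a count that this removal of a gene's own UMIs tends to raise by construction. The thinner data and lower minimum change the number of genes that could be called. The subtraction took a larger part of the WT than of the PIGinH11 delta counts. The cause of the other differences was not tested.

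Counts of called genes stayed within 1.5 times under the mitochondrial, doublet, SST, gate and gene limits, the median-of-ratios scaling, the other denominator and the mean over nuclei. Without the richest nucleus, 87 of the 121 higher calls against the other endocrine nuclei were kept, and 203 of 208 higher and 129 of 159 lower calls between libraries. Of the values of 60 named genes against the other endocrine nuclei, 623 stayed within counting error, 94 moved and 1 reversed, GUCY1B1 at −0.79 when thinned. Of those of 20 genes between libraries, 208 stayed and 26 moved. Genes with too few UMIs left for a ratio had no value, 47, 12 and 3 against the other endocrine nuclei and 13, 4 and 9 between libraries at fewer than 1300 UMIs, when thinned and with free RNA subtracted, the last 9 being the genes given with the acinar markers.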
